A study of Mus musculus with 16 samples.

Results

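Skeletal muscle genes were followed across 16 tumours that had grown under the skin of mice from a liver cancer cell line. The members are 41 genes of the contractile apparatus, calcium handling and energy supply of muscle fibres, listed by symbol, and 37 of them were measured out of 17097 genes on the array. The other 4, Neb, Myom2, Xirp2 and Ampd1, had no probe set of their own in the probe table used and were not analysed here. The list was drawn up with the muscle signal of each tumour already known, so the differences between tumours below are given as descriptions, without a test.

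Hepa1-6, a mouse hepatocellular carcinoma line, was implanted in 50% Matrigel into the right flank of male C57BL/6 mice aged 5 weeks. Treatment began when tumours measured 200 to 300 cubic mm, and tumours were taken on day 14. The 4 Combination tumours came from mice given both cabozantinib, an oral inhibitor of several receptor kinases, at 30 mg/kg daily, and the J43 anti-PD1 antibody, which blocks a checkpoint receptor of T cells. The antibody was injected at 10 mg/kg in 5 doses, with 3 days between doses. The 5 Cabozantinib tumours had the kinase inhibitor alone at that dose, and the 3 AntiPD1 tumours the antibody alone. The 4 Placebo tumours had hamster IgG on the antibody's schedule, and the sources used here do not say whether Cabozantinib mice had IgG too. All 4 groups therefore share 1 cell line, 1 implantation site and the same day of collection. Replicate numbers only name tumours, in the order of the deposited samples, and pair none of them. The sample titles also carry a number before a dot, which the labels do not explain, and 8 tumours share theirs with another tumour. These are AntiPD1 tumour 1 with Placebo tumour 2, AntiPD1 tumour 3 with Placebo tumour 4, Combination tumour 3 with Cabozantinib tumour 5, and Cabozantinib tumours 2 and 3. The labels do not say that each tumour came from its own mouse. The p values here treat the tumours as independent, which the labels do not show.

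Muscle fibres contract when myosin thick filaments slide along actin thin filaments, which are anchored at the Z disc. A calcium release from internal stores starts the contraction, and pumps and buffers in the fibre end it. Fast fibres use other myosin and troponin genes than slow fibres, and most limb muscles of the mouse are made mainly of fast fibres. A thin sheet of skeletal muscle also lies beneath the skin of mice.

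The deposited values are log2 array signals, and each gene is shown by whichever of its probe sets had the highest 16-array mean. Array medians over all probe sets ran from 4.92 to 5.13, and a value under the median of its own array is not shown to be above background. At such values a log2 difference is held down by the background. In all 16 tumours the liver genes Alb, for albumin, and Afp, for fetal alpha-fetoprotein, stood at 12.84 or above and 12.41 or above. Krt5 and Krt14, keratins of the basal skin layer, lay under the array median in all 16.

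A run of neighbouring myosin genes on chromosome 11, Myh2, Myh1 and Myh4, encodes the heavy chains of fast fibres. They are shown first because each of them ranked the tumours differently. The RefSeq table (build GRCm38.p6) gives a window of 250 bases before and 50 bases after the start of each gene, all on the plus strand. These are chr11:67170777-67171076 for Myh2, chr11:67199852-67200151 for Myh1 and chr11:67237562-67237861 for Myh4. Capitals mark TATAAA, the letters of a core promoter element, wherever they occur in the window. They also mark the E-box CANNTG, which muscle regulatory factors of the MyoD family bind, and the CArG box, which serum response factor binds. Both strands were searched, so TATAAA read from the other strand appears as TTTATA, and matches could overlap.
Myh2: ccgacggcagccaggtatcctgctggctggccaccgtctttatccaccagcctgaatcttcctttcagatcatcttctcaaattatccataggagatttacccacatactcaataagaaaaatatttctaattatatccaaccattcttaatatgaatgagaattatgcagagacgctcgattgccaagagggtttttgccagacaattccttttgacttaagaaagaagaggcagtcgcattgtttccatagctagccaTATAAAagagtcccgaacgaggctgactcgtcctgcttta
Myh1: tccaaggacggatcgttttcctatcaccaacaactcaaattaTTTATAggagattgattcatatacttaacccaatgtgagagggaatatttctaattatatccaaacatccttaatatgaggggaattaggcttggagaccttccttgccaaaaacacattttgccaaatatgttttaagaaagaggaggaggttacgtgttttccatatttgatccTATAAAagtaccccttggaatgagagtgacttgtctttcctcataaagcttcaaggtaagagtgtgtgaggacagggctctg
Myh4: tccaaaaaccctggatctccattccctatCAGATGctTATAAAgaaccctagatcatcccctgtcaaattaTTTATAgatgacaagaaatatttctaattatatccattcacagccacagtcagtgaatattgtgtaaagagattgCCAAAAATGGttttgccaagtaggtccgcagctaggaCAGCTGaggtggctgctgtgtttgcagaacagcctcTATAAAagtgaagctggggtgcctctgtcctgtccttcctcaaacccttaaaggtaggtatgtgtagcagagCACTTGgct
The Myh4 window held 3 E-boxes, 3 TATAAA matches and 1 CArG box, the Myh1 window 2 TATAAA matches, and the Myh2 window 1. The nearest TATAAA before the start began 32 bases upstream in Myh1 and 31 in Myh4. In Myh2 the match lay within the 50 bases after the listed start. Across 27025 promoters of the table, 72.1% held an E-box, 14.2% TATAAA and 1.57% a CArG box. Of the 29 measured members with a promoter in the table, 23 held an E-box, 7 held TATAAA and 4 held a CArG box, the last being Myh4, Acta1, Ldb3 and Myom1. A MEF2 box was found in Ttn alone among the members, and in 0.566% of all promoters. A match is a description of the letters and not a binding site.

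Only 3 tumours, 1 in each drug group, held most of the muscle signal. The member score of a tumour, the mean over the 37 genes of the log2 signal minus that gene's mean over 16 tumours, was -1.22, -1.27, 0.03 and 4.23 in Combination. It was -1.20, -1.17, 0.97, 2.92 and -0.71 in Cabozantinib, -1.21, 3.20 and -1.31 in AntiPD1, and -0.84, -1.31, 0.21 and -1.31 in Placebo. Combination tumour 4, AntiPD1 tumour 2 and Cabozantinib tumour 4 thus stood apart, with a gap of 1.95 on the log2 scale to the next tumour. Cabozantinib tumour 3, Placebo tumour 3 and Combination tumour 3 formed a middle range, and the 10 lowest tumours lay between -1.31 and -0.71. The group means were 0.44 ± 2.59 (SD, n = 4) in Combination, 0.16 ± 1.78 (SD, n = 5) in Cabozantinib, 0.23 ± 2.58 (SD, n = 3) in AntiPD1 and -0.81 ± 0.72 (SD, n = 4) in Placebo. The 4 groups overlapped, since each drug group also held tumours with lower scores than Placebo tumours 1 and 3.

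**Figure D1:**
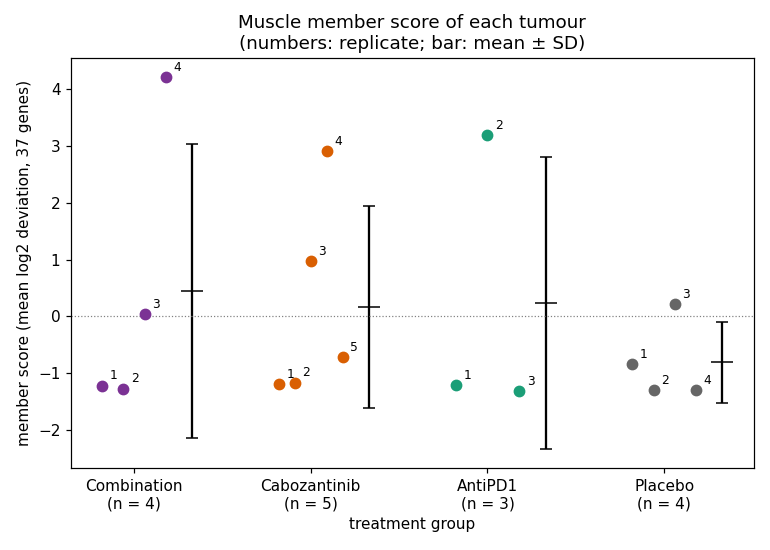
Member score (mean log2 deviation of 37 muscle genes, vertical axis) of each tumour by treatment group, with replicate numbers at the points and the group mean ± SD beside them. Combination tumour 4 (4.23), AntiPD1 tumour 2 (3.20) and Cabozantinib tumour 4 (2.92) stand above the other 13, while Placebo reaches 0.21.

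The same 3 tumours were the top 3 for all 37 members. Combination tumour 4 was the highest for 36, and Des, which encodes the intermediate filament that ties Z discs together, was highest in Cabozantinib tumour 4. AntiPD1 tumour 2 was next for 26 members and Cabozantinib tumour 4 for 10. The distance between a gene's lowest and highest tumour had a median of 6.13 on the log2 scale over members, with a range of 0.86 to 8.91, against a median of 0.62 over all genes. Of the 84 genes on the array with a distance over 5, 25 were members. The SD within groups had a median of 2.03 for members and 0.156 for all genes, and 32 of 37 members lay in the top 1% of all genes by it. Correlation of each member with the mean of the others over the 16 tumours ran from 0.63 for Smyd1 to 0.99, with a median of 0.97, and these values rest largely on the 3 high tumours that all members share. In a whole tumour, fewer muscle fibres and less muscle RNA per fibre cannot be told apart.

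The number of members above the array median was 10, 10, 25 and 37 in Combination, 12, 11, 31, 34 and 15 in Cabozantinib, 10, 36 and 9 in AntiPD1, and 16, 11, 26 and 9 in Placebo. Over all genes that share moved only between 59.1% and 60.8% from array to array. All 37 members were thus above background in Combination tumour 4 alone. In contrast, 7 members, Eno3, Tpm2, Pfkm, Des, Myl1, Mylpf and Tnnc1, were above it in all 16 tumours.

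**Figure D2:**
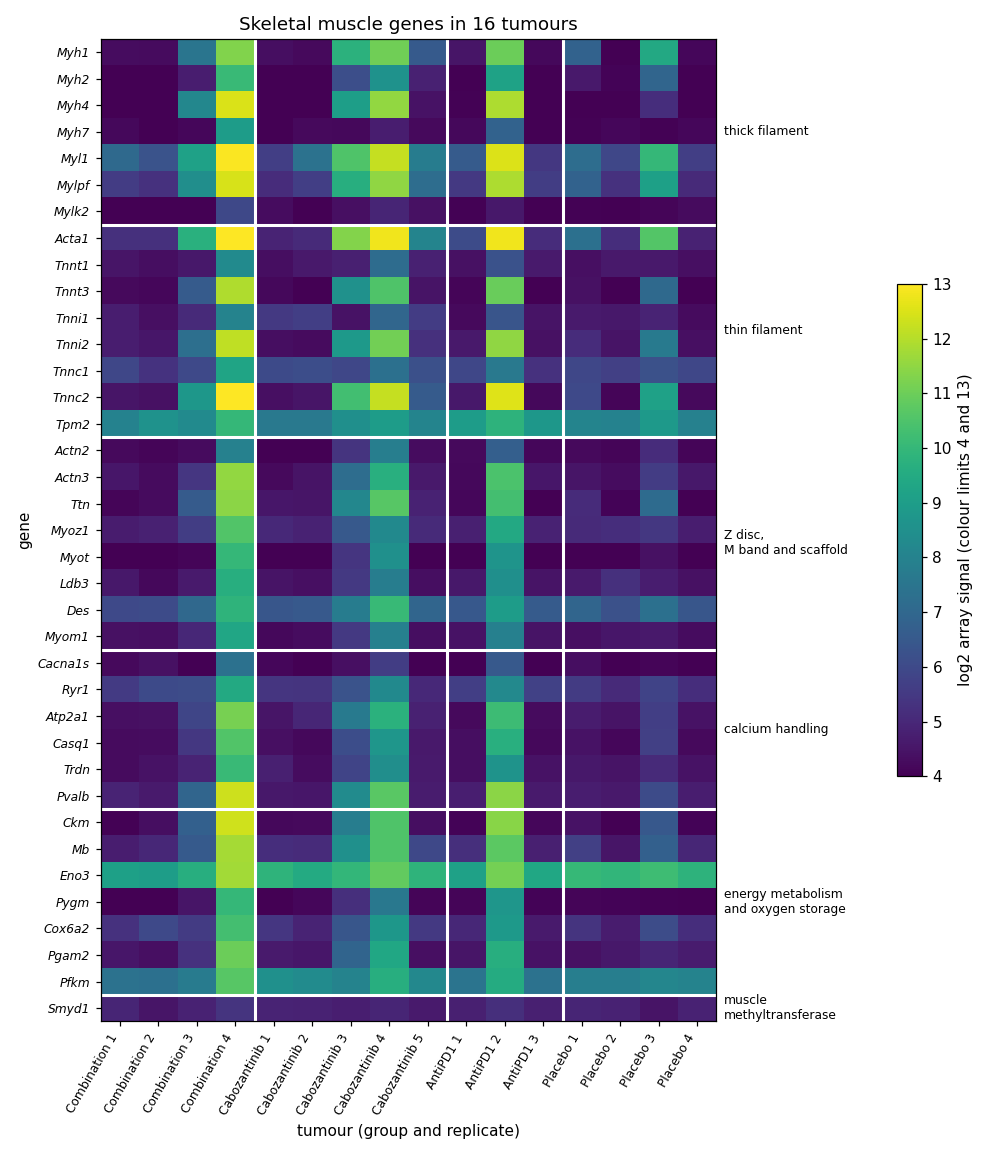
Log2 array signal (colour) of the 37 measured members, grouped by role (rows), in each of the 16 tumours (columns, in 4 groups). Combination tumour 4, Cabozantinib tumour 4 and AntiPD1 tumour 2 are bright for most members, and Eno3, Tpm2 and Pfkm are bright in every tumour.

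Among the thick filament genes, Myh4 encodes the heavy chain of the fastest fibres, of type IIb. Its log2 signal was 3.999, 3.87, 8.17 and 12.48 in Combination, 4.02, 3.80, 9.06, 11.54 and 4.42 in Cabozantinib, 4.05, 11.89 and 3.84 in AntiPD1, and 3.99, 3.66, 5.17 and 3.80 in Placebo. Of the 6 tumours above the array median, 5 belonged to drug groups, and the other, Placebo tumour 3, was close to its own array's median of 5.05. Myh1, the heavy chain of type IIx fibres, was at 4.29, 4.27, 7.50 and 11.28 in Combination, 4.35, 4.22, 9.80, 11.05 and 6.56 in Cabozantinib, 4.50, 10.98 and 4.21 in AntiPD1, and 6.85, 3.997, 9.42 and 4.15 in Placebo. It was above background in 8 tumours, and Placebo tumours 1 and 3 were among them. Myh2, for type IIa fibres, measured 4.03, 3.92, 4.73 and 10.11 in Combination, 3.93, 4.02, 6.17, 8.59 and 4.84 in Cabozantinib, 3.82, 9.18 and 4.02 in AntiPD1, and 4.62, 4.10, 6.92 and 4.02 in Placebo. Here Placebo tumour 3 exceeded Combination tumour 3 and Cabozantinib tumour 3. Myh7, the heavy chain of slow fibres and of the heart, stood at 4.18, 3.93, 4.16 and 8.97 in Combination, 4.02, 4.21, 4.18, 4.73 and 4.23 in Cabozantinib, 4.18, 6.84 and 3.98 in AntiPD1, and 4.06, 4.15, 4.06 and 4.16 in Placebo. Only Combination tumour 4 and AntiPD1 tumour 2 were above background, and Cabozantinib tumour 4 was not.

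**Figure D3:**
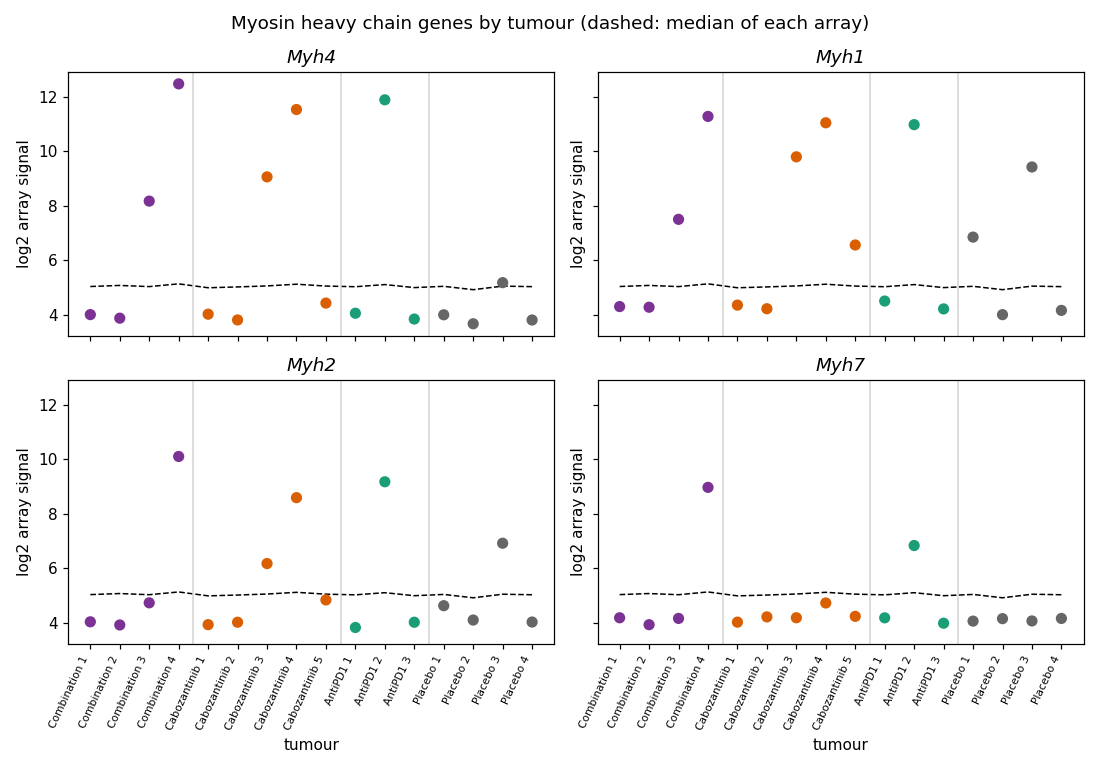
Log2 array signal (vertical axis) of Myh4, Myh1, Myh2 and Myh7 in each of 16 tumours, coloured by group, with the array medians dashed. Placebo tumour 3 is high for Myh1 (9.42) and Myh2 (6.92) but near the array median for Myh4 (5.17), and Myh7 exceeds the median in 2 tumours.

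The light chain genes had the same 3 highest tumours. Myl1, an essential light chain of fast fibres, ranged from 5.45 in AntiPD1 tumour 3 to 12.96 in Combination tumour 4, and Mylpf, their regulatory light chain, from 5.07 in Placebo tumour 4 to 12.46. Both were above background in every tumour. Mylk2, the kinase that phosphorylates the regulatory light chain in skeletal muscle, reached 5.93 in Combination tumour 4 and lay under the array median in the other 15.

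Acta1, the actin of skeletal thin filaments, was at 5.23, 5.24, 9.70 and 13.24 in Combination, 4.91, 5.08, 11.34, 12.82 and 8.07 in Cabozantinib, 6.04, 12.81 and 5.13 in AntiPD1, and 7.33, 5.17, 10.60 and 4.87 in Placebo. It was above the array median in 14 tumours, with Placebo tumour 3 among the higher ones. Tnnc2, Tnni2 and Tnnt3, the calcium-binding, inhibitory and tropomyosin-binding troponin subunits of fast fibres, spanned 4.13 to 13.04, 4.27 to 12.15 and 3.90 to 11.91. Tnnt1, the slow counterpart of Tnnt3, was 4.51, 4.34, 4.56 and 8.31 in Combination, 4.33, 4.62, 4.79, 7.17 and 4.82 in Cabozantinib, 4.40, 6.25 and 4.66 in AntiPD1, and 4.36, 4.63, 4.63 and 4.37 in Placebo. Only the 3 tumours with the highest member scores were above background for it. Tnni1, the slow inhibitory subunit, ran from 4.22 to 8.04, and reached 5.48, 5.67 and 5.60 in Cabozantinib tumours 1, 2 and 5, which had negative fast fibre scores. Tnnc1, the troponin C of slow fibres and of the heart, ran from 5.29 to 9.26. Tpm2, a tropomyosin that smooth muscle also uses, had values of 7.99, 8.60, 8.31 and 9.98 in Combination, 7.65, 7.65, 8.50, 8.99 and 8.05 in Cabozantinib, 8.96, 9.83 and 8.76 in AntiPD1, and 8.07, 8.002, 8.86 and 7.97 in Placebo. With the probe set used, Tpm2 varied less than the fast troponins, and the AntiPD1 tumours were at or above 8.76. In AntiPD1, another Tpm2 probe set, above the array median in all 16 tumours, gave 5.96, 9.55 and 5.96. That probe set gave 10.42 in Combination tumour 4. A further Tpm2 probe set gave 4.03, 6.00 and 4.05 in AntiPD1, and the remaining probe set 7.86, 9.28 and 7.66.

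Of the Z disc, M band and scaffold genes, 6 of 8 were above background in 4 to 7 tumours, Myoz1 in 10 and Des in all 16. Actn3, the alpha-actinin of fast fibres, spanned 4.18 to 11.53, and Actn2, the alpha-actinin of all fibres and of the heart, 3.82 to 7.95. Ttn, the giant spring protein titin, spanned 3.87 to 11.44, and Myom1, the M band protein myomesin, 4.19 to 9.31. The Z disc proteins encoded by Myoz1, Myot and Ldb3 spanned 4.67 to 10.56, 3.46 to 9.98 and 4.18 to 9.65. Des had 6.00, 6.04, 7.04 and 9.85 in Combination, 6.40, 6.52, 7.77, 10.06 and 6.94 in Cabozantinib, 6.47, 8.98 and 6.58 in AntiPD1, and 6.93, 6.22, 7.34 and 6.42 in Placebo. Cabozantinib tumour 4 was the highest for it, and Combination tumours 1 and 2 were the lowest.

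All 6 calcium handling genes were highest in Combination tumour 4. Cacna1s, the voltage sensor of the tubule membrane, spanned 3.77 to 7.36, and Ryr1, the release channel that it opens, 5.03 to 9.47. Atp2a1, the pump that returns calcium to the stores of fast fibres, spanned 4.24 to 11.17. Casq1, which stores calcium there, and Trdn, which links it to the release channel, spanned 4.17 to 10.57 and 4.28 to 10.103. Pvalb, a calcium buffer of fast fibres, was 4.90, 4.66, 6.92 and 12.30 in Combination, 4.58, 4.55, 8.34, 10.70 and 4.69 in Cabozantinib, 4.74, 11.43 and 4.65 in AntiPD1, and 4.73, 4.61, 6.05 and 4.71 in Placebo. Combination tumour 3 and Cabozantinib tumour 3 exceeded Placebo tumour 3 for Pvalb, by 0.87 and 2.28 on the log2 scale.

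Of the energy genes, Ckm, the creatine kinase of muscle, was 4.07, 4.34, 6.76 and 12.34 in Combination, 4.20, 4.24, 7.83, 10.51 and 4.33 in Cabozantinib, 4.10, 11.41 and 4.16 in AntiPD1, and 4.44, 3.91, 6.46 and 4.09 in Placebo. It was above background in 6 tumours, of which Placebo tumour 3 was 1. Mb, which binds oxygen in the fibre, spanned 4.52 to 11.77, Pygm, the glycogen phosphorylase of muscle, 3.86 to 9.99, and Pgam2, a glycolytic mutase, 4.36 to 10.996. Cox6a2, a subunit of the respiratory chain in striated muscle, spanned 4.64 to 10.31. Eno3, the enolase of muscle, was 9.13, 9.005, 9.66 and 11.77 in Combination, 9.85, 9.51, 9.96, 10.86 and 9.85 in Cabozantinib, 9.15, 11.11 and 9.37 in AntiPD1, and 10.02, 9.94, 10.20 and 9.82 in Placebo. Every tumour was far above background, and its 2 lowest values were in Combination tumours 1 and 2. Pfkm, the phosphofructokinase of muscle, measured 7.41, 7.33, 7.75 and 10.65 in Combination, 8.53, 8.34, 8.02, 9.63 and 8.21 in Cabozantinib, 7.45, 9.54 and 7.41 in AntiPD1, and 7.85, 7.85, 8.14 and 8.03 in Placebo. Its low values lay in Combination tumours 1 to 3 and AntiPD1 tumours 1 and 3, all under every Cabozantinib and Placebo tumour.

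Smyd1, a methyltransferase of heart and skeletal muscle, stayed between 4.49 and 5.35 with the probe set used, and only Combination tumour 4 and AntiPD1 tumour 2 exceeded their array medians. Another of its probe sets gave 6.92 in Combination tumour 4, 5.16 in Cabozantinib tumour 4 and 4.98 in AntiPD1 tumour 2, and 3 more stayed under the median in all 16. In all, 14 members had 28 other probe sets, of which 17 exceeded the array median in some tumour, and 15 of these were highest in Combination tumour 4. For Myh1 the probe set used carries the suffix x, by which the manufacturer marks probes that can match other transcripts, and Myh1, Myh2 and Myh4 are closely related in sequence. Another Myh1 probe set without that suffix gave 7.62 in Combination tumour 3, 9.71 in Cabozantinib tumour 3 and 9.30 in Placebo tumour 3. A further Myh1 probe set, above the array median in 5 tumours, gave 4.93, 6.20 and 5.83 in them, so that Combination tumour 3 was under its array median, and it was highest in Cabozantinib tumour 4. The remaining Myh1 probe set was under the median in all 16. Another Myh4 probe set gave 10.36 in Combination tumour 4, 7.98 in Cabozantinib tumour 4 and 8.92 in AntiPD1 tumour 2, but stayed under the array median in the other 13.

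Fast and slow fibre members did not rank the tumours alike. The fast score, over 13 members, was 5.08 in Combination tumour 4, 4.3 in AntiPD1 tumour 2, 3.90 in Cabozantinib tumour 4, 1.90 in Cabozantinib tumour 3, 0.76 in Placebo tumour 3 and 0.49 in Combination tumour 3. The slow score, over Myh7, Tnnt1, Tnni1 and Tnnc1, was 3.34, 1.47 and 1.24 in the first 3 of these, and -0.47, -0.34 and -0.35 in the others. The 3 middle tumours thus held fast fibre signal with slow scores inside the range of the 10 lowest tumours, which reached -0.08. Low signals near background compress these differences, and the slow members spanned a smaller range of signals than most fast ones.

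**Figure D4:**
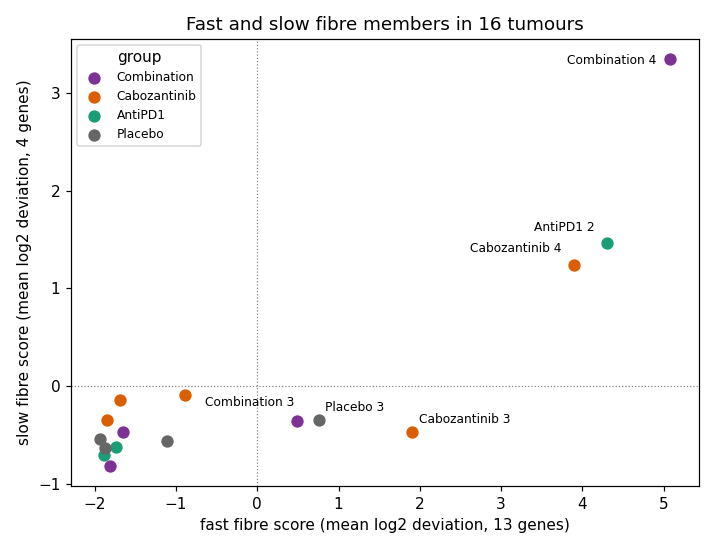
Slow fibre score (4 genes, vertical axis) against fast fibre score (13 genes, horizontal axis) of each tumour, both as mean log2 deviations, coloured by group. Combination tumour 4 is high on both (5.08 and 3.34), while Cabozantinib tumour 3 has a fast score of 1.90 and a slow score of -0.47.

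The 3 high tumours also differed from each other. Combination tumour 4 exceeded AntiPD1 tumour 2 in all 37 members, with a median difference of 0.88 for the 13 fast members and 1.87 for the 4 slow ones. Mylk2 was under the array median in AntiPD1 tumour 2, so its difference is a lower limit. Against Cabozantinib tumour 4 the medians were 1.05 and 1.54, and Myh7 had the largest difference of all members, 4.25. Myh7, Mylk2 and Smyd1 were under the array median in Cabozantinib tumour 4, so their differences from Combination tumour 4 are lower limits. Cabozantinib tumour 4 was lower than AntiPD1 tumour 2 for 26 members and higher for 11. Cabozantinib tumour 4 minus AntiPD1 tumour 2 was -2.11 for Myh7, but 0.91 for Tnnt1, 1.14 for Actn2 and 1.08 for Des. The size of this Myh7 difference is also a lower limit. Of 5 slow genes outside the members, Cabozantinib tumour 4 was lower than AntiPD1 tumour 2 for 2 and higher for 3, with a median difference of 0.33. Myl2, the regulatory light chain of slow fibres and ventricle, had 9.25 in Combination tumour 4, 5.06 in Cabozantinib tumour 4, which is under that array's median, and 7.45 in AntiPD1 tumour 2. Myl3, the matching essential light chain, had 7.22, 4.70 and 5.39 in these tumours, and was also under the array median in Cabozantinib tumour 4. Atp2a2, the calcium pump of slow fibres and of many other cells, had 10.05, 9.71 and 9.38, Casq2, the calsequestrin of slow fibres and heart, 5.71, 5.77 and 5.31, and Myoz2, a Z disc protein of slow fibres, 7.62, 6.94 and 6.23. Each of these is 1 tumour against another, so no replicate check exists.

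Combination tumour 3 and Placebo tumour 3 differed most in the fast myosins. Their member scores were close, at 0.03 and 0.21. Yet the log2 signal of Combination tumour 3 minus that of Placebo tumour 3 was 3.00 for Myh4, -1.92 for Myh1 and -2.19 for Myh2. The other 34 members differed by between -0.90 (Acta1) and 0.87 (Pvalb). Myh2 was under the array median in Combination tumour 3, so the size of its difference there is a lower limit. Myh4 in Placebo tumour 3, at 5.17, was close to that array's median of 5.05. Cabozantinib tumour 3 minus Placebo tumour 3 gave 3.89 for Myh4, 0.37 for Myh1 and -0.75 for Myh2, and Cabozantinib tumour 3 exceeded Placebo tumour 3 in 31 of 37 members. The Myh4 difference was seen with the probe set used and not with the other Myh4 probe set, which was at or below 5.04 in all 3 tumours. With the Myh1 probe set that was under its array median in Combination tumour 3, the Myh1 difference was also smaller.

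Group differences were fitted with limma, a linear model with moderated variances, over all 17097 genes with Benjamini-Hochberg adjustment at 0.05. The SD within groups had a median of 2.03 for members, against 0.156 for all genes, and the members move together. A call was therefore hard to reach for them, and 0 calls cannot show that a drug left these genes unchanged. In Combination against Placebo, 0 of 37 members passed, where 10.4% of all genes did, and 0 had an unadjusted p under 0.05, against 29.2% of all genes. That share rests on 1771 genes, which became 42 without Combination replicate 2, 61 without Placebo replicate 2, 255 without Placebo replicate 4, 370 without Placebo replicate 3, 1058 without Combination replicate 1, 1145 without Combination replicate 3 and 1124 without AntiPD1 replicate 1. Myh4 averaged 7.13 ± 4.09 (SD, n = 4) in Combination and 4.16 ± 0.69 (SD, n = 4) in Placebo, a difference of 2.97 with a 95% interval of -1.79 to 7.73 and a limma adjusted p of 0.410. Acta1 differed by 1.36 (interval -3.55 to 6.28, limma adjusted p = 0.740), and Myh7 by 1.20 (interval -0.72 to 3.12, limma adjusted p = 0.409). Of the members, 36 had a positive difference, with a median of 1.36 against -0.02 over all genes. For Myh4, Acta1 and Myh7 the SD among Combination tumours was larger than the difference.

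In Cabozantinib against Placebo, 0 of 37 members passed (0.257% of all genes did), and 0 had an unadjusted p under 0.05 (13% of all genes). Their median difference was 0.97, positive for 36, and the lowest limma adjusted p was 0.563, for Tnni1. Myh4 averaged 6.57 ± 3.52 (SD, n = 5) in Cabozantinib, against 4.16 ± 0.69 (SD, n = 4) in Placebo, a difference of 2.41 (interval -2.11 to 6.93, limma adjusted p = 0.697). In AntiPD1 against Placebo, 0 of 37 passed (0.0292% of all genes), with a median of 1.08 and 36 positive. Tpm2 alone had an unadjusted p under 0.05 there, as did 19.2% of all genes. It averaged 9.18 ± 0.57 (SD, n = 3) in AntiPD1 and 8.22 ± 0.43 (SD, n = 4) in Placebo, a difference of 0.96 ± 0.44 (SE) with a limma adjusted p of 0.257. With the mean over all probe sets of a gene, 0 members had an unadjusted p under 0.05 in AntiPD1 against Placebo.

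The combined treatment was also set against each drug alone. In Combination against Cabozantinib, 0 of 37 members passed (0.00585% of all genes), and 0 had an unadjusted p under 0.05 (22.5% of all genes). The median difference was 0.31, and the lowest limma adjusted p was 0.425, for Tpm2. In Combination against AntiPD1, 0 passed (0.234% of all genes) and 0 had an unadjusted p under 0.05 (7.21% of all genes), with a median of 0.23. By role, the medians in Combination against Placebo were 1.20 for thick filament, 1.16 for thin filament, 1.33 for Z disc, M band and scaffold, 1.45 for calcium handling and 1.52 for energy genes. Fast members had a median of 1.68 and slow members 0.95. The comparisons share tumours, so they do not support each other.

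These medians moved with single tumours. Without AntiPD1 replicate 2 the median of AntiPD1 against Placebo was -0.33, with 6 of 37 positive. Without Combination replicate 4 the median of Combination against Placebo was 0.01, with 19 of 37 positive. Without Cabozantinib replicate 4 the median of Cabozantinib against Placebo was 0.26, with 31 of 37 positive. Combination against Cabozantinib had a median of -1.07 without Combination replicate 4 and 1.04 without Cabozantinib replicate 4. Combination against AntiPD1 had a median of -1.22 without Combination replicate 4 and 1.75 without AntiPD1 replicate 2. Other tumours moved these 2 comparisons too. Combination against AntiPD1 had -0.61 (4 of 37 positive) without AntiPD1 replicate 1 and -0.69 (3 of 37) without AntiPD1 replicate 3, and 0.68 and 0.74 without Combination replicates 1 and 2. Combination against Cabozantinib had 0.01, -0.05 and 0.03 without Cabozantinib replicates 1, 2 and 5, and 0.87 and 0.86 without Combination replicates 1 and 2. It had 0.56 without Cabozantinib replicate 3 and 0.51 without Combination replicate 3, and Combination against AntiPD1 had 0.36 without the last of these. In AntiPD1 against Placebo the median was 1.78 without AntiPD1 replicate 1 and 1.85 without AntiPD1 replicate 3.

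Leaving out these 3 tumours together, an alternative added after the values were seen, gave 2 calls among the members. The members' own values chose which tumours to drop, so the calls describe the other 13 tumours. Eno3 then fell by 0.73 in Combination against Placebo by limma (adjusted p = 0.0263), where 7.51% of all genes passed, and the 3 Combination tumours left lay under every Placebo tumour. With all 16 tumours the difference was -0.10. Pfkm fell by 0.78 in Combination against Cabozantinib by limma (adjusted p = 0.0451), where 0.216% of all genes passed, and the difference was -0.26 with all 16. Eno3 and Pfkm were above the array median in all 16 tumours, while Ckm was above it in 6. Whether their signal in the tumours left came from muscle was not tested. Of all genes 0.281% then passed in Cabozantinib against Placebo, 0.0234% passed in AntiPD1 against Placebo and 0.0819% in Combination against AntiPD1, and 0 members were among them.

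Genes outside the list moved with the members. The 15 genes with the highest correlation with the member score over the 16 tumours ran from 0.963 to 0.988. They were Pdlim3, Tcap, Srl, Apobec2, Asb5, Klhl41, Nrap, Cmya5, Mybpc1, Nexn, Synpo2, Fabp3, Synm, 1110002E22Rik and Ankrd23. Tcap, which caps titin at the Z disc, had 4.20, 4.32, 4.87 and 10.24 in Combination, 4.22, 4.12, 6.28, 9.04 and 4.45 in Cabozantinib, 4.29, 8.89 and 4.3 in AntiPD1, and 4.49, 4.11, 4.54 and 4.10 in Placebo. It thus exceeded background in the 3 high tumours and in Cabozantinib tumour 3. Mybpc1, a myosin-binding protein of the thick filament, had 8.82 in Combination tumour 4, 7.56 in Cabozantinib tumour 4 and 7.50 in AntiPD1 tumour 2, and no other tumour reached its array median. Of 17060 genes outside the list, 63 had a correlation over 0.9 and 151 over 0.8, and the 3 high tumours enter each of these values.

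Other muscle lists showed how far this pattern extended. Of 39 further sarcomere and muscle genes measured, 33 were highest in Combination tumour 4 and 30 had the same top 3 tumours. By limma 0 of the 39 passed in any of the 5 comparisons, while 2, 0, 1, 1 and 0 had an unadjusted p under 0.05 in Cabozantinib against Placebo, AntiPD1 against Placebo, and Combination against Placebo, Cabozantinib and AntiPD1. The shares of all genes with such a p were 13%, 19.2%, 29.2%, 22.5% and 7.21% in the same order. Of 8 genes of oxidative muscle metabolism, 7 were highest in Combination tumour 4. Ldhb, a lactate dehydrogenase subunit of oxidative tissue, rose by 1.16 ± 0.34 (SE) in Combination against Placebo (limma adjusted p = 0.0459). That is 1 of 8, where 10.4% of all genes passed, and Ldhb also passed with the 3 high tumours left out. Of 11 glycogen and glycolysis genes, Gbe1 and Gys1, which build glycogen and are named after their values were seen, rose in the same comparison by 1.08 ± 0.15 and 0.44 ± 0.12 (SE; limma adjusted p = 0.00875 and 0.0360). They also rose in Cabozantinib against Placebo, by 0.83 and 0.76 (limma adjusted p = 0.0261 and 0.0141), where 0.257% of all genes passed. With the 3 high tumours left out, Gbe1 but not Gys1 passed in Combination against Placebo. Gys1 but not Gbe1 then passed in Cabozantinib against Placebo. Gbe1 was highest in Combination tumour 2 and Gys1 in Cabozantinib tumour 4, and Pygm, which breaks glycogen down, had a difference of 1.52 that did not pass.

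Genes of developing and regenerating muscle varied in how many tumours held them above background. Of 5 embryonic and neonatal genes and 11 myogenic factors and satellite cell genes, the transcription factors Mef2c and Mef2d, which are not confined to muscle, were above it in all 16 tumours. Ncam1, an adhesion molecule of developing muscle and of nerve, was above it in 12, and Myl4, a light chain of embryonic muscle and atrium, in 8. Myh3 and Myh8, the embryonic and neonatal heavy chains, reached at most 5.01 and 5.66, and Myh3 exceeded the array median in 0 of 16 tumours. Myh8 exceeded it in Combination tumour 4 (5.66) and Cabozantinib tumour 4 (5.53) but not in AntiPD1 tumour 2 (4.08). Myog, a transcription factor of muscle differentiation, did so in the same tumours, at 6.54 and 5.72, and had 4.67 in AntiPD1 tumour 2. Myf6, the MyoD family factor of mature fibres, had 7.81, 6.86 and 6.03 in Combination tumour 4, Cabozantinib tumour 4 and AntiPD1 tumour 2 and stayed under the median in the other 13. Pax7, the factor of satellite cells, was at most 4.29 and never above background.

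Markers of other tissues had other orders of tumours. Among smooth muscle and pericyte, adipocyte, keratinocyte, nerve and Schwann cell, and tendon and fibroblast genes, 0 had those top 3 tumours. Endothelial, neutrophil, and hepatoma and fetal liver genes also had 0, and among 6 cardiac genes 1 had. All 8 endothelial genes and 8 of 10 smooth muscle and pericyte genes were nevertheless highest in 1 of those 3 tumours. The neuromuscular junction list, which includes receptor genes of muscle itself, had 0 of 10 genes with those top 3 tumours. Yet 5 of the 10 were highest in 1 of those tumours. Its score was highest in Cabozantinib tumour 4 (0.39) and Combination tumour 4 (0.34), and was -0.03 in AntiPD1 tumour 2. The adipocyte score, over 8 genes, was 1.93 in Combination tumour 1, 1.41 in Combination tumour 2 and 2.89 in Cabozantinib tumour 2, and lay between -0.34 and 0.24 in the 3 tumours high in muscle. Adipoq, a hormone of fat cells, was at 11.38, 10.94 and 11.62 in those adipocyte-high tumours. The keratinocyte score stayed between -0.07 and 0.12. Some lists were high in 1 or more of the 3 muscle-high tumours. The endothelial score was 1.60 in AntiPD1 tumour 2, the highest of 16, though Cdh5, a junction gene of vessels, was high in all 3 AntiPD1 tumours, at 7.39, 7.81 and 7.28. The smooth muscle score was also highest in AntiPD1 tumour 2, at 0.53. The neutrophil score was 0.86 in Cabozantinib tumour 4, where S100a8 and S100a9 reached 11.51 and 11.79. That score was 0.61 in AntiPD1 tumour 2 and -0.42 in Combination tumour 4, and was highest in AntiPD1 tumour 1, at 1.10. The tendon and fibroblast score was 0.73 in Combination tumour 4, 0.38 in Cabozantinib tumour 4 and 1.07 in AntiPD1 tumour 2, and 0.67 in AntiPD1 tumour 1, which was low in muscle genes. The nerve and Schwann cell score was highest in Combination tumour 4, at 0.43, and was 0.16, 0.29 and 0.34 in the other Combination tumours. The hepatoma and fetal liver score was 0.63 in Combination tumour 4, and -0.97, -0.96 and -0.62 in the other Combination tumours. It was highest in Cabozantinib tumour 5, at 0.92. The part of these cells in the muscle signal was not tested.

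**Figure D5:**
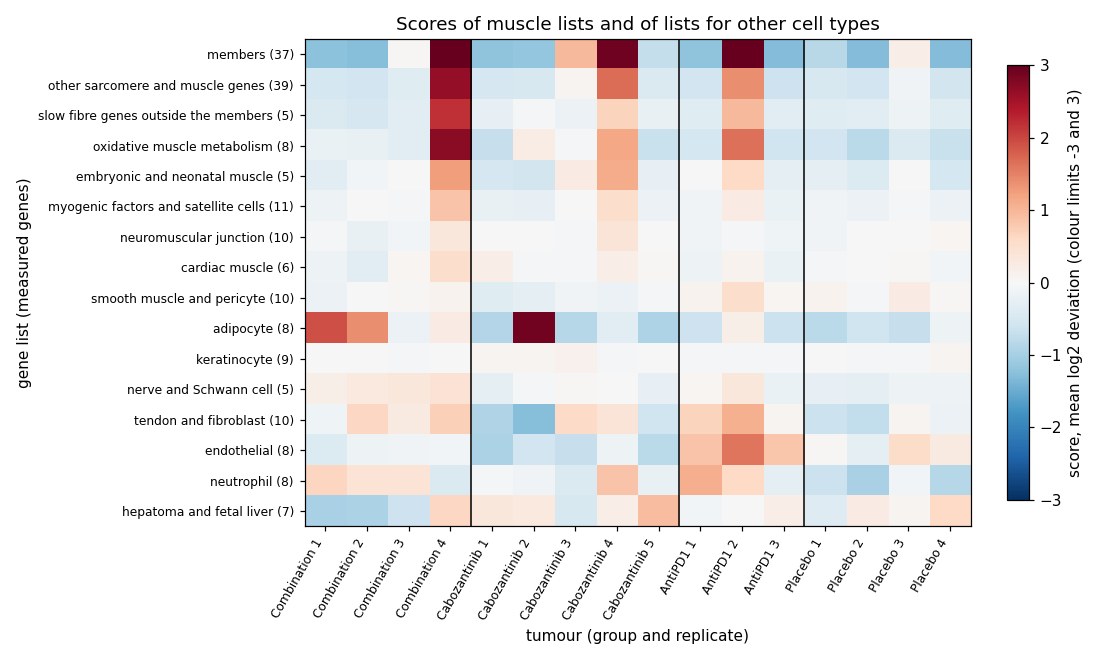
Score (colour, mean log2 deviation) of the members and of 15 further gene lists (rows, with the number of genes measured) in each tumour (columns, by group). Most muscle lists are high in Combination tumour 4, Cabozantinib tumour 4 and AntiPD1 tumour 2. In AntiPD1 tumour 2 the neuromuscular junction list is at -0.03 and the cardiac list at 0.11, under its 0.19 in Cabozantinib tumour 1. The adipocyte list is high in Combination tumours 1 and 2 (1.93 and 1.41) and Cabozantinib tumour 2 (2.89).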

How the data were processed

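Total RNA (50 ng per tumour) from 16 tumours was hybridised to Affymetrix whole-genome mouse arrays. The deposited values are log2 signals, 1 per probe set and array; the submitters' processing notes name RMA and the R package affy 1.62.0, and the sources used here give no scan batch. Of 45141 probe sets, 104 are controls, 28898 pair with 1 gene in the probe table and 551 with several, which were left out. Gene IDs of 28689 were found in the RefSeq table and no symbol changed. Each of 17097 genes was represented by whichever of its probe sets had the highest 16-array mean. Group means were fitted with limma 3.58.1 in R 4.3.3 (lmFit and eBayes), with all 4 groups in 1 fit, no covariate and Benjamini-Hochberg adjustment over all genes at 0.05. The fit was tested on simulated data with independent noise for each gene, so that test does not cover genes that share high tumours, as the members do. No filter on low values was applied, and a value above the array median was read as above background. The number of arrays limits the precision.

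The members, the other lists and the tests were chosen with earlier results of these data known. Genes named are all members, the 15 genes outside them with the highest Pearson correlation with the member score, up to 3 measured genes of each list with the highest mean, and a fixed panel of markers; the exceptions, Gbe1, Gys1, Csrp3 and Chrna1, were named after their values were seen. Alternatives were the mean over probe sets, quantile or median normalization, a filter on low values, array weights, fits of 2 groups, a trended robust prior, the median over members, and leaving out each tumour.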

Additional observations from a re-analysis of the deposited data

Results flagged for a closer look

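In each group of 4 or 5 tumours, the highest or lowest tumour was picked out where its gap to the nearest other tumour exceeded 0.829 (4 tumours) or 0.71 (5 tumours) of the group's whole range. In data with no stray values this picks out about 1 group in 20. The members were listed with the muscle signal of each tumour known and they move together, so the 28 of 120 groups picked out here are a description and not a test. The 3 AntiPD1 tumours are too few for it.

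Combination tumour 4 was picked out 19 times, always as the highest of its group. Among filament genes its log2 signal was 10.11 for Myh2, 8.97 for Myh7, 5.93 for Mylk2, 8.31 for Tnnt1 and 9.26 for Tnnc1. Among Z disc and M band genes it was 7.95 for Actn2, 11.53 for Actn3, 10.56 for Myoz1, 9.98 for Myot, 9.65 for Ldb3 and 9.31 for Myom1. Among calcium genes it was 7.36 for Cacna1s, 9.47 for Ryr1 and 10.103 for Trdn. Among energy genes it was 9.99 for Pygm, 10.31 for Cox6a2, 10.996 for Pgam2 and 10.65 for Pfkm. The slow fibre score of this tumour was 3.34, where the other 3 Combination tumours lay between -0.81 and -0.35.

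Cabozantinib tumour 4 was picked out 4 times, for Tnnt1 at 7.17, Tnnc1 at 7.31, Cacna1s at 5.64 and the slow fibre score at 1.24. These are mostly slow fibre values, for which Cabozantinib tumour 3 did not rise above the rest of its group as it did for fast genes.

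Placebo tumour 3 was picked out 5 times. It was the highest Placebo tumour for Tnnt3 at 7.09, Tpm2 at 8.86, Actn2 at 5.16 and Pvalb at 6.05, and the lowest for Smyd1 at 4.49, which lies under the array median.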

How the results depend on the processing

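The number of members called was 0 in all 5 comparisons under the 7 other choices of processing (30 of the 37 tested with the filter on low values) and in each fit without 1 tumour (range 0 to 0). With array weights the members' median difference was 0.56 in Cabozantinib against Placebo, 0.34 in AntiPD1 against Placebo and 0.45 in Combination against AntiPD1, against 0.97, 1.08 and 0.23 as reported. Without AntiPD1 replicate 2, Cabozantinib replicate 4 and Combination replicate 4 together, an alternative added after the values were seen, 1 member (Eno3, -0.73) was called in Combination against Placebo and 1 (Pfkm, -0.78) in Combination against Cabozantinib. There Acta1 and Myh7 in Combination against Placebo were -0.27 and -0.019, and Myh4 in AntiPD1 against Placebo was -0.21, the same as without Combination replicate 4 or AntiPD1 replicate 2 alone. Without Combination replicate 1 or 2, Eno3 in Combination against Placebo was 0.15 or 0.19 and Pfkm in Combination against Cabozantinib 0.030 or 0.056. Pfkm was 0.0088 without Cabozantinib replicate 4. None of these was called. Leaving out each tumour in turn, Acta1 ranged up to 2.56 and Myh7 up to 1.66 in Combination against Placebo, and Myh4 up to 3.81 in AntiPD1 against Placebo, while Eno3 was lowest at -0.73 and Pfkm at -1.05. In the same fits the member score difference ranged from 0.28 to 1.31 in Cabozantinib against Placebo, -0.45 to 1.81 in AntiPD1 against Placebo, -0.01 to 1.82 in Combination against Placebo, -0.98 to 0.97 in Combination against Cabozantinib and -1.05 to 1.70 in Combination against AntiPD1. The fast minus slow score difference ranged from 0.15 to 1.30, -0.63 to 1.38, 0.08 to 1.16, -0.68 to 0.47 and -0.76 to 1.25 in the same order. Counts over all genes moved with the fit and with single tumours: with array weights 71, 1822, 3059, 1441 and 155 genes passed in these comparisons, and in fits of 2 groups 4, 70, 2309, 1 and 22, against 44, 5, 1771, 1 and 40 as reported. With the mean over probe sets 82 passed in Cabozantinib against Placebo, and with the filter on low values 72, 1, 2265, 2 and 24. Leaving out 1 tumour gave 5 (without Placebo replicate 3) to 91, 0 to 30, 42 (without Combination replicate 2) to 2290, 0 to 1955 (without Cabozantinib replicate 3) and 13 (without AntiPD1 replicate 2) to 50 genes. The cause was not tested. No paired analysis was possible because the replicate numbers only name the tumours. The unexplained title numbers, taken as a random block in an alternative added after the values were seen, gave a consensus correlation of -0.10 and 0 members called.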

Other observations

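Some muscle genes outside the members followed other orders, and Csrp3 and Chrna1 are named after their values were seen. Csrp3, a Z disc protein that responds to load, had 4.03, 3.59, 4.19 and 8.42 in Combination, 3.84, 3.90, 5.19, 7.97 and 4.54 in Cabozantinib, 3.80, 6.91 and 3.72 in AntiPD1, and 4.3, 3.88, 6.91 and 4.03 in Placebo. Placebo tumour 3 thus matched AntiPD1 tumour 2 for Csrp3, although its member score was 0.21 against 3.20. Chrna1, the alpha subunit of the muscle acetylcholine receptor, reached 7.58 in Combination tumour 4 and 7.06 in Cabozantinib tumour 4 but 4.64, under the array median, in AntiPD1 tumour 2. Myl4, the light chain of embryonic muscle, was 7.47, 8.24 and 6.21 in these tumours, so that Cabozantinib tumour 4 was the highest.

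Cox8b, a respiratory chain subunit of muscle and brown fat, was at 9.13 in Combination tumour 4, 7.53 in Cabozantinib tumour 4 and 7.71 in AntiPD1 tumour 2. It was also at 7.998 in Cabozantinib tumour 2, which had the highest adipocyte score and a member score of -1.17. Tnmd, a tendon gene, was at 5.26 in Combination tumour 4, 6.46 in AntiPD1 tumour 1 and 6.99 in AntiPD1 tumour 2, and under the array median in the other 13. Ankrd1, a stress-responsive muscle protein, was between 10.04 and 10.89 in all 16 tumours and did not follow the members.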
